A study of Mus musculus with 6 samples.

Results

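The genes described here are 10 genes of TGF-beta receptor signalling and its feedback control, namely Tgfbr1, Smad3, Smad7, Smurf1, Smurf2, Ski, Skil, Tgif1, Pmepa1 and Ldlrad4. They were measured in mouse CD8+ T cells cultured as Tc17 or as Tc1, the IL-17-producing and interferon-gamma-producing effector states. Each gene was taken as the probe set whose platform symbol is exactly that name, and the brightest one would have been used had there been several. All 10 were found, with 1 probe set each, among 22180 genes that had such a probe set. Sorted naive CD8+ T cells from spleen received antibodies to CD3 (1 µg/ml) and to CD28 (3 µg/ml) over 4 days in both groups. The Tc17 cultures had IL-6 and TGF-beta for 3 days, the Tc1 cultures had IL-12 for those 3 days, and both then had IL-2 for 1 day. Strain, age and sex of the mice, and whether numbered samples came from separate animals, are not stated in the labels. The p-values therefore measure only the spread between these samples. The groups differ in 3 cytokines at once, so TGF-beta and IL-6 cannot be told apart from each other or from the lack of IL-12.

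TGF-beta binds a pair of kinase receptors, and the type I chain, encoded by Tgfbr1, then phosphorylates SMAD2 and SMAD3, which enter the nucleus with SMAD4. The pathway is limited at several levels by its own products, among them the inhibitory Smad SMAD7, ubiquitin ligases it recruits, nuclear corepressors that block Smad complexes, and membrane proteins that hold Smads away from the receptor. In T cells TGF-beta is known for restraining effector differentiation and, together with IL-6, for inducing the IL-17 programme.

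Each group had 2 biological samples and a technical array of sample 2, which was averaged with sample 2, leaving 2 samples per group. The array medians lay between 6.04 and 6.09 on the log2 scale, and the small number of arrays limits the precision of every value. The labels were checked by the state markers: Il17a averaged 11.53 ± 0.50 in Tc17 and 6.32 ± 0.04 in Tc1, and Ifng averaged 7.51 ± 0.40 in Tc17 and 13.00 ± 0.25 in Tc1 (log2 intensity, SD, n = 2). The CD8 chain genes Cd8a and Cd8b1 measured 12.78 and 12.81 in Tc17 and 12.91 and 12.84 in Tc1, and neither passed the test. Of 5 macrophage and monocyte markers 1 was called higher in Tc17, Lyz2. It averaged 8.97 ± 0.30 in Tc17 and 5.44 ± 0.0042 in Tc1 (log2, SD, n = 2, limma adjusted p = 0.00594). Its Tc1 arrays read 5.44, 5.21 and 5.68, all below every array median. The small Tc1 SD hides the 0.47 between the 2 arrays of Tc1 sample 2. Csf1r, Adgre1 and Cd14 were not called but had every Tc17 array above every Tc1 array, a pattern of 15.2% of all genes. Their log2 differences were 0.28, 0.38 and 0.25. The arrays of Itgam overlapped. Lyz2 was the brightest of the 5 in Tc17, so it weighs most there in the sum that follows. The summed linear intensity of these 5 markers ran from 678.8 to 858.6 over the Tc17 arrays and from 258.7 to 291.6 over the Tc1 arrays, and 2 of the 5 (Adgre1 and Cd14) were dimmer than each array median in both groups. Of 3 measured B cell markers none was called. Cd79b had a log2 difference of 0.52 (limma adjusted p = 0.162), Cd79a one of 0.02 and Ms4a1 one of −0.06. The arrays of Cd79a and Ms4a1 overlapped, and Ms4a1 was dimmer than each array median in both groups. The part of other cells in the results below was not tested, and on total RNA a change in the make-up of a culture and a change per cell cannot be told apart.

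The comparison asked whether the components and feedback genes of the TGF-beta pathway differ between cells cultured with and without that cytokine. The 10 genes were chosen with earlier results of these data known, so their counts beside the shares of all genes are a description. All 10 genes had a higher mean in Tc17, as had 45.8% of all genes, and 4 of them rose there: Ldlrad4 (10.7-fold), Pmepa1 (5.51-fold), Ski (2.29-fold) and Tgfbr1 (1.97-fold). In limma's moderated test an adjusted p under 0.05 in the higher direction was found for 0.992% of the 22180 genes, against 4 of these 10, and for 1.01% of all 41345 probe sets in either direction. The median log2 difference was 0.81 over the 10 genes and −0.013 over all genes. An unadjusted p under 0.05 with a higher Tc17 mean was found for 9 of the 10, against 9.1% of all genes. On 9 of the 10 every Tc17 array lay above every Tc1 array, a pattern of 15.2% of all genes, with Smurf1 as the exception. The shares of all genes include dim ones: 8507 of the 22180 were dimmer than each array median in both groups, against 0 of the 10. The calls depended on every sample: no fit with 1 sample left out kept the 4 calls. Calls also became fewer over all probe sets in those fits. Log2 differences there were 3.07 to 3.76 (Ldlrad4), 2.31 to 2.62 (Pmepa1), 1.09 to 1.30 (Ski) and 0.89 to 1.06 (Tgfbr1). All 10 differences stayed above 0 in these fits. For the 9 genes without overlap, leaving out a sample could not have reversed the sign.

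**Figure D1:**
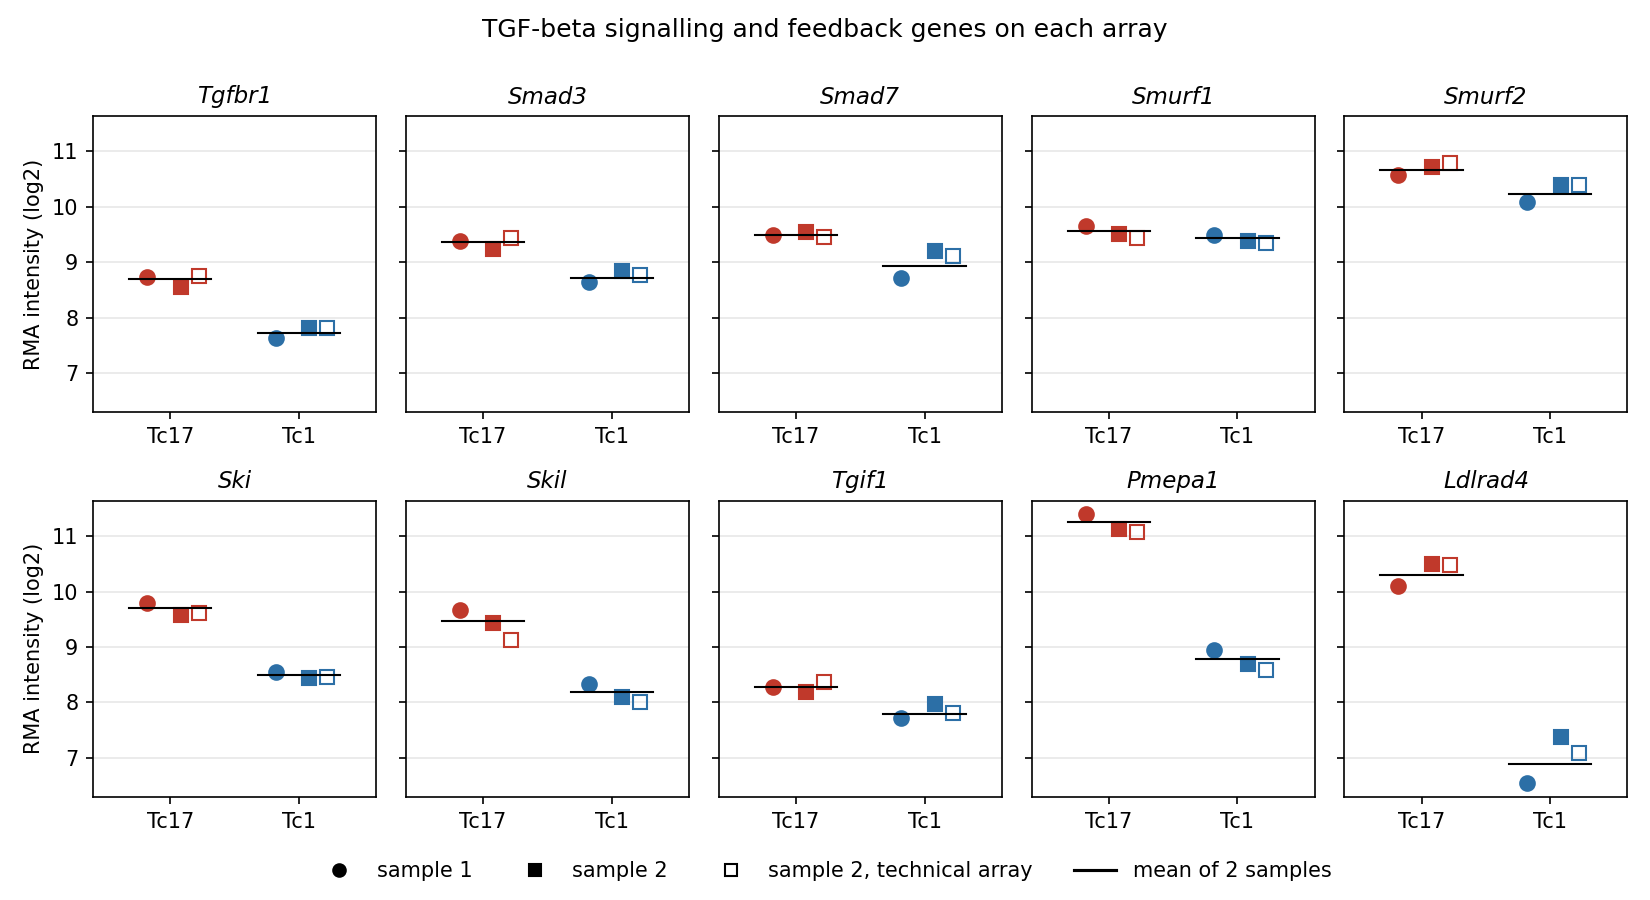
Log2 RMA intensity (vertical axis, the same in all panels) of each gene on the 3 Tc17 and the 3 Tc1 arrays, with circles for sample 1, filled squares for sample 2, open squares for its technical array and a line at the mean of the 2 samples. Ldlrad4 and Pmepa1 show the widest gaps between the groups, and Smurf1 is the 1 gene whose groups overlap. Heights are not comparable between genes, because each probe set has its own brightness.

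At the receptor, Tgfbr1 encodes the type I kinase that carries the signal into the cell. It measured 8.73, 8.55 and 8.75 in Tc17, against 7.63, 7.80 and 7.80 in Tc1 (log2 intensity, in the order sample 1, sample 2 and technical array of sample 2, as in all such runs of 3 values here). The Tc17 arrays lay at least 0.75 above the Tc1 arrays. The log2 difference was 0.97 ± 0.09 (SE; 95% interval 0.73 to 1.22), with a limma adjusted p of 0.0334. Its call ended with the technical arrays left out (adjusted p = 0.0566) and with any 1 sample left out (adjusted p = 0.112 to 0.192). Its partner Tgfbr2, the type II chain that binds the ligand first, was not called and had a lower mean in Tc17. Tgfbr2 measured 10.08, 10.03 and 10.17 in Tc17, against 10.26, 10.33 and 10.28 in Tc1. Its log2 difference was −0.19 ± 0.07 (SE; 95% interval −0.38 to 0.0009, limma adjusted p = 0.379). Whether the 2 chains differ in their change was not tested.

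Smad3, the receptor-activated Smad that carries the signal to DNA, had a higher Tc17 mean and did not pass. It measured 9.39, 9.24 and 9.43 in Tc17, against 8.64, 8.84 and 8.77 in Tc1. The groups did not overlap, with a gap of 0.41 between the nearest arrays. The log2 difference was 0.64 ± 0.09 (SE; 95% interval 0.41 to 0.88, limma adjusted p = 0.0722). Smad2 and Smad4, the sister receptor-activated Smad and the shared partner of both, had smaller log2 differences of 0.16 and 0.15 (limma adjusted p = 0.48 and 0.664). Smad2 measured 10.88, 10.89 and 10.92 on the Tc17 arrays and 10.71, 10.76 and 10.76 on the Tc1 arrays. The Smad4 arrays of the 2 groups overlapped.

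Smad7 encodes the inhibitory Smad that occupies the activated receptor and recruits ubiquitin ligases to it. It measured 9.49, 9.55 and 9.46 in Tc17, against 8.71, 9.19 and 9.12 in Tc1. The Tc17 samples were close together (SD 0.0088), while the Tc1 samples lay 0.45 apart, with sample 1 the lower. The log2 difference of 0.57 ± 0.16 (SE; 95% interval 0.14 to 1.00) did not pass (limma adjusted p = 0.262). It ranged from 0.34 without Tc1 sample 1 to 0.79 without Tc1 sample 2. Smad6, the other inhibitory Smad, was dimmer than each array median in both groups, at 5.98 in Tc17 and 5.91 in Tc1.

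Smurf1 and Smurf2 encode HECT-type ubiquitin ligases that SMAD7 brings to the receptor for its degradation. Smurf2 measured 10.57, 10.72 and 10.78 in Tc17, against 10.08, 10.40 and 10.39 in Tc1. The groups were separated by 0.17, which is less than the 0.32 between the Tc1 samples. The log2 difference was 0.42 ± 0.14 (SE; 95% interval 0.06 to 0.79, limma adjusted p = 0.313). Smurf1 measured 9.65, 9.51 and 9.44 in Tc17, against 9.50, 9.39 and 9.35 in Tc1. Its groups overlapped, and its log2 difference of 0.13 ± 0.10 (SE; 95% interval −0.14 to 0.39, limma adjusted p = 0.684) was the smallest of the 10. The interval allows a change of up to 1.31-fold upward and does not show that Smurf1 is equal in both states.

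The nuclear corepressors Ski and Skil encode relatives that bind Smad complexes and silence their targets, and the SnoN protein made from Skil is degraded on TGF-beta signalling. Ski measured 9.80, 9.57 and 9.61 in Tc17, against 8.55, 8.44 and 8.47 in Tc1. The Tc17 arrays lay at least 1.02 above the Tc1 arrays. Ski rose by a log2 difference of 1.20 ± 0.10 (SE; 95% interval 0.92 to 1.47, limma adjusted p = 0.0254), and its call ended with any 1 sample left out (adjusted p = 0.0765 to 0.129). Skil measured 9.67, 9.43 and 9.13 in Tc17, against 8.33, 8.10 and 8.01 in Tc1. Its groups were separated by 0.80, and the technical array of Tc17 sample 2 was the lowest of the 3 in Tc17. The log2 difference of 1.28 ± 0.17 (SE; 95% interval 0.83 to 1.73, limma adjusted p = 0.0661) was slightly larger than that of Ski but did not pass. With the technical arrays left out Skil passed (adjusted p = 0.0335).

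Tgif1 encodes a homeodomain corepressor that also binds Smads. It measured 8.27, 8.19 and 8.36 in Tc17, against 7.71, 7.96 and 7.80 in Tc1. The nearest arrays of the groups were 0.22 apart. The log2 difference of 0.48 ± 0.09 (SE; 95% interval 0.24 to 0.72) did not pass (limma adjusted p = 0.135). Tgif2, its relative, had a log2 difference of 0.0093 (limma adjusted p = 0.978).

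The largest differences were those of Pmepa1 and Ldlrad4, which encode related membrane proteins that bind SMAD2 and SMAD3 and keep them from the receptor. Ldlrad4 measured 10.10, 10.50 and 10.48 in Tc17, against 6.53, 7.37 and 7.08 in Tc1. Its Tc17 arrays lay at least 2.73 above its Tc1 arrays, and the Tc1 samples were 0.69 apart, the widest gap between samples of 1 group among the 10 genes. The log2 difference was 3.41 ± 0.27 (SE; 95% interval 2.70 to 4.13, a fold of 6.51 to 17.5), with a limma adjusted p of 0.0207. By size of increase it ranked 20 among the 22180 genes, and Pmepa1 ranked 49. Leaving out 1 sample gave log2 differences of 3.07 to 3.76 and adjusted p-values of 0.0503 to 0.0934, so the call ended each time. The Tc1 mean of 6.88 is not far above the array medians, and without detection calls the fold holds for intensities.

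Pmepa1 measured 11.40, 11.13 and 11.07 in Tc17, against 8.95, 8.69 and 8.58 in Tc1. In both groups sample 1 was the higher, and the groups were separated by 2.13. The log2 difference was 2.46 ± 0.16 (SE; 95% interval 2.05 to 2.88, a fold of 4.13 to 7.34), with a limma adjusted p of 0.0130, the lowest of the 10. It was called without Tc17 sample 2 (adjusted p = 0.0498) and not without Tc17 sample 1, Tc1 sample 1 or Tc1 sample 2 (adjusted p = 0.0733, 0.0515 and 0.0702).

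**Figure D2:**
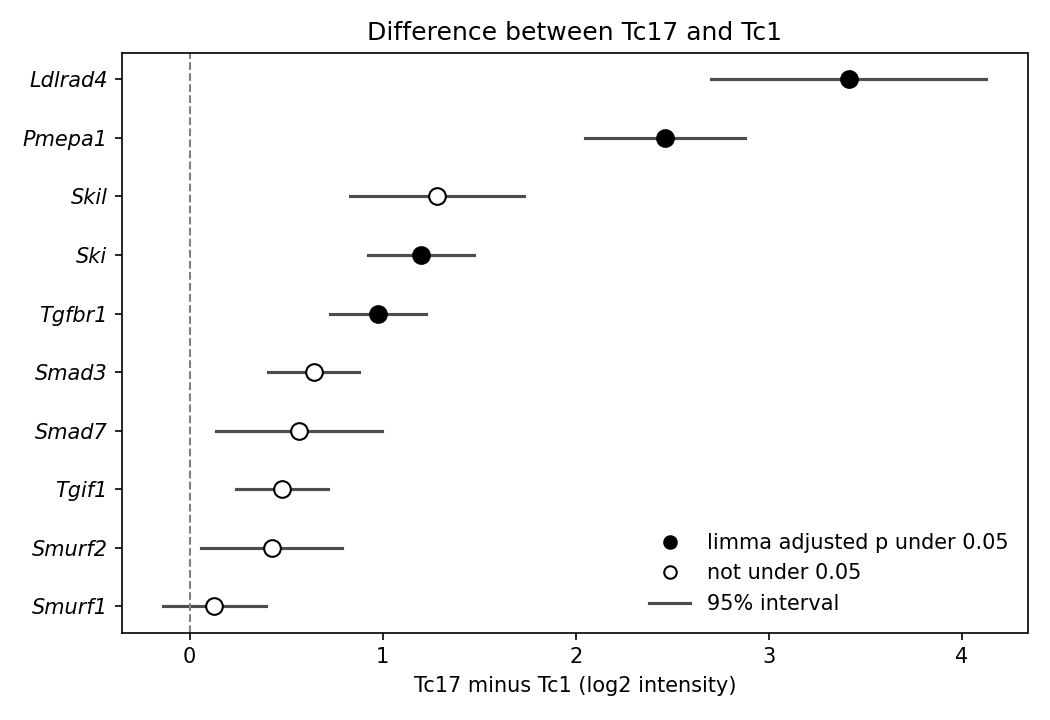
Log2 difference between Tc17 and Tc1 for each gene (horizontal axis) with the 95% interval of limma's moderated fit on 2 samples per group. Filled points passed an adjusted p of 0.05: Ldlrad4, Pmepa1, Ski and Tgfbr1. Skil lies between Pmepa1 and Ski in size but has a wider interval than Ski, and the interval of Smurf1 includes 0.

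Read in order of their differences, the genes formed a graded series in which the 95% intervals of neighbours overlapped, except between Pmepa1 and Skil. The intervals of both membrane inhibitors lay above those of the other 8 genes. No difference between genes was tested. Repeat arrays of the same sample differed by a median of 0.07 over the 10 genes and both groups (range 0.0007 to 0.30), and samples of the same group by a median of 0.18 (range 0.0029 to 0.69). Within a group the samples did not shift all 10 genes one way. Tc17 sample 1 was above Tc17 sample 2 in 7 of the 10 and below in 3. Tc1 sample 1 was above Tc1 sample 2 in 4 and below in 6. These counts do not show whether same-numbered samples of the groups moved together, as they did across probe sets (r = 0.31).

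**Figure D3:**
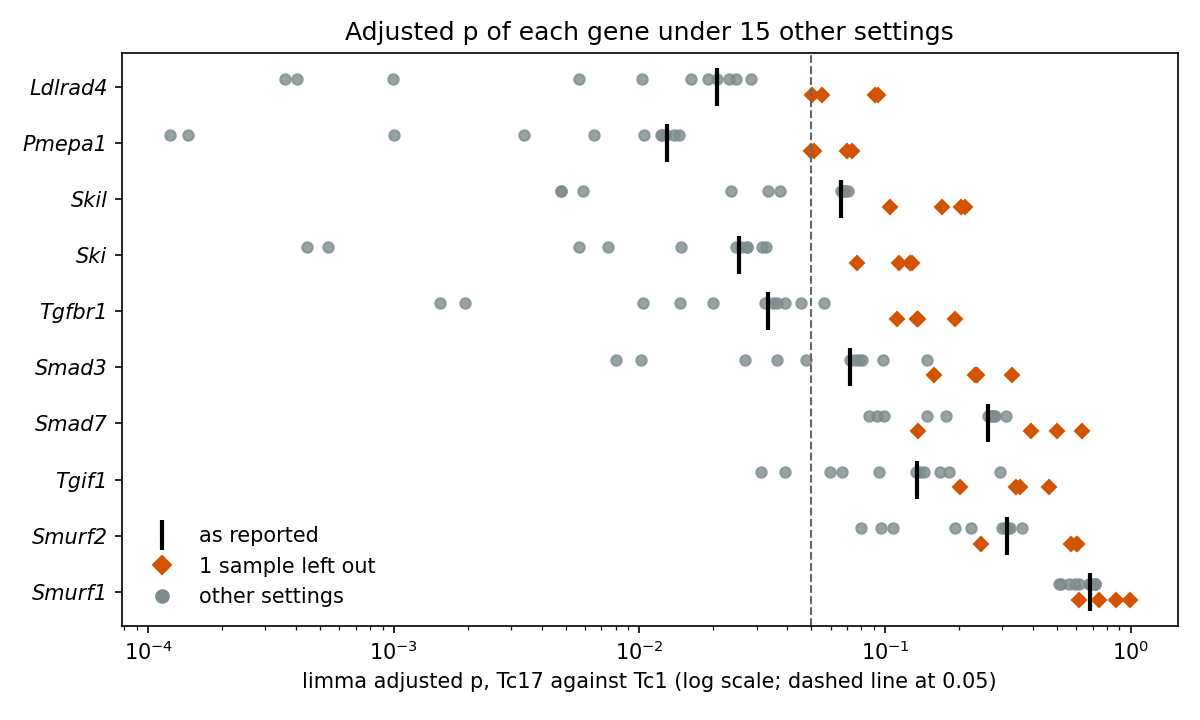
Limma adjusted p of each gene (horizontal axis, log scale, dashed line at 0.05), with a bar for the reported fit, diamonds for the 4 fits that leave out 1 sample and circles for the other settings. Nearly all diamonds lie right of the line, the exception being Pmepa1 without Tc17 sample 2 (0.0498). For Smad7, Smurf1 and Smurf2 every point lies right of it.

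The start regions of the genes were read from RefSeq sequences of build GRCm38.p6, in windows of 250 bases before to 50 after an annotated start. By Entrez identifier 6 of the 10 genes matched: Tgfbr1, Smad3, Smurf1, Smurf2, Ski and Tgif1. Tgfbr1 and Ski are shown because they rose, and Smurf1 because it had the smallest difference. Capitals mark matches, on either strand, of CAGAC (the core element bound by SMAD3 and SMAD4), the palindromic Smad element GTCTAGAC (which does not contain CAGAC on either strand) and the AP-1 element TGANTCA. Windows run 5′ to 3′ on the gene's strand.
Tgfbr1 promoter, chr4:47352972-47353271, plus strand: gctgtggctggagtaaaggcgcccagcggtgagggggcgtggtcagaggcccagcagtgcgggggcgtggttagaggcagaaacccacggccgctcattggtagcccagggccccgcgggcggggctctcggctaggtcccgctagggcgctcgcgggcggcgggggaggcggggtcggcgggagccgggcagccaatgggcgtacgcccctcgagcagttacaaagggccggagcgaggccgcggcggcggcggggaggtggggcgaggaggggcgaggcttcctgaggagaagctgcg
Ski promoter, chr4:155222486-155222785, minus strand: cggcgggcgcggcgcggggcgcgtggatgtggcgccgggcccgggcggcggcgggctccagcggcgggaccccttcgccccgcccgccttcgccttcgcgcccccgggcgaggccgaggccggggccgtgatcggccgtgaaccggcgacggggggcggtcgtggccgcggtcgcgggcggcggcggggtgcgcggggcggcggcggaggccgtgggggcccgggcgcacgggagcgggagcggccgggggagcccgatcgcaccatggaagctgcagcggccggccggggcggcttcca
Smurf1 promoter, chr5:144965781-144966080, minus strand: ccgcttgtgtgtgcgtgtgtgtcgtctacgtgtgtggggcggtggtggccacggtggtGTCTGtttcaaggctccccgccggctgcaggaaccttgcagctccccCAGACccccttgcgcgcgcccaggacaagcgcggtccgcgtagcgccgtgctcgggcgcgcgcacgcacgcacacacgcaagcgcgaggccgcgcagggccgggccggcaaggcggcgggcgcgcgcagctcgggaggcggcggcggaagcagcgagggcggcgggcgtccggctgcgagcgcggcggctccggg
The windows of Tgfbr1 and Ski held no match, and that of Smurf1 held 2 of CAGAC, 1 on each strand. CAGAC occurs in many start regions. Of all 32851 windows, 49.6% held CAGAC at least once and 16.2% at 2 or more places, 0.213% held GTCTAGAC and 7.81% held TGANTCA. Among the other matched genes Smad3 had no match in its window, Smurf2 had 2 of CAGAC, and Tgif1 had between 0 and 2 in its 5 alternative windows. The second window of Tgfbr1 had 1. The windows shown are rich in G and C, at 74.7% for Tgfbr1, 85.3% for Ski and 76.3% for Smurf1, against a median of 52.7% over all windows. These are letter matches in short windows and say nothing on binding there or elsewhere.

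The rest of the pathway was described through 6 lists of other genes, holding 84 genes of which 81 were measured. Of these 81, 4 rose in Tc17 and none fell, and all 4 were target genes. The limma adjusted p was under 0.05 for 0.992% of all genes in the higher and 0.591% in the lower direction. Without adjustment 21 of the 81 had a limma p under 0.05 and a higher mean and 6 a lower mean, against 9.1% and 6.79% of all genes.

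None of 16 ligand and activation genes passed (unadjusted limma p under 0.05 for 1 higher and 1 lower), 6 of their log2 differences were above 0, and the median was −0.04. Tgfb1, the main TGF-beta ligand of T cells, measured 12.51, 12.43 and 12.40 on the Tc17 arrays, against 12.63, 12.51 and 12.42 on the Tc1 arrays. Its groups overlapped (log2 difference −0.09, 95% interval −0.33 to 0.16, limma adjusted p = 0.777). The largest uncalled differences of this list were in Tgfb3, another TGF-beta ligand, and Gdf11, a ligand of the activin branch. Tgfb3 averaged 11.46 ± 0.30 in Tc17 and 10.50 ± 0.27 in Tc1 (log2, SD, n = 2; limma adjusted p = 0.159). Gdf11 averaged 8.68 ± 0.08 in Tc17 and 9.56 ± 0.23 in Tc1 (limma adjusted p = 0.0855).

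Of 10 other receptors and co-receptors of the superfamily none passed (unadjusted limma p under 0.05 for 5 higher), 9 had log2 differences above 0 and the median was 0.44. On 6 of the 10 the Tc17 arrays lay entirely above the Tc1 arrays, and on 1, Tgfbr2, entirely below, patterns of 15.2% and 14.5% of all genes. The largest differences were those of Bmpr2, the type II BMP receptor, and Acvr2a, a type II activin receptor. Bmpr2 measured 10.59, 10.38 and 10.54 on the Tc17 arrays, against 9.03, 9.54 and 9.45 on the Tc1 arrays. Its log2 difference was 1.26 ± 0.17 (SE, limma adjusted p = 0.0712). Acvr2a measured 6.84, 6.30 and 6.53 on the Tc17 arrays, against 5.47, 5.50 and 5.05 on the Tc1 arrays, which lie below every array median. Its log2 difference was 1.26 ± 0.17 (SE, limma adjusted p = 0.0673).

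Among 6 other Smad genes none passed, with an unadjusted limma p under 0.05 for 0, and the median log2 difference was 0.09. None of 20 measured cofactors, ubiquitin ligases and phosphatases passed either (unadjusted limma p under 0.05 for 4 higher and 2 lower), with a median of 0.0071. The largest differences there were those of Dab2, an adaptor protein gene, and Cited2, a transcriptional co-regulator gene. Dab2 averaged 7.02 ± 0.04 in Tc17 and 6.35 ± 0.19 in Tc1 (log2, SD, n = 2; limma adjusted p = 0.11). Cited2 averaged 11.35 ± 0.32 in Tc17 and 11.88 ± 0.0066 in Tc1 (limma adjusted p = 0.299). None of 11 genes of non-Smad signalling passed (unadjusted limma p under 0.05 for 2 higher and 1 lower, median −0.06). Among them Traf6, a ubiquitin ligase that links the receptor to the kinase TAK1, had a log2 difference of 0.80 (limma adjusted p = 0.145), and Map3k7, which encodes TAK1, one of 0.37 (limma adjusted p = 0.257).

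Target genes outside the feedback arm held the 4 calls, among 18 measured (unadjusted limma p under 0.05 for 9 higher and 2 lower). Their median log2 difference was 0.21, with 13 above 0 and 5 below. The 2 lower genes with an unadjusted limma p under 0.05 were Cdkn2b and Ccn2. Their log2 differences were −0.39 and −0.28 (limma adjusted p = 0.123 and 0.368). The most negative difference of the list was −0.98 for Bcl2l11, whose arrays overlapped (limma adjusted p = 0.644). Ccn2 was dimmer than each array median in Tc17. Itgae, the CD103 integrin chain and a standard TGF-beta target in CD8+ T cells, measured 10.94, 10.97 and 10.99 on the Tc17 arrays, against 5.87, 5.56 and 5.80 on the Tc1 arrays. It was called with every sample left out in turn (limma adjusted p = 0.0177 to 0.0212), as was Foxp3, which defines regulatory T cells (0.0185 to 0.03). Tgfbi, an extracellular matrix protein gene named for its induction by TGF-beta, averaged 8.36 ± 0.10 in Tc17 and 7.04 ± 0.10 in Tc1 (log2, SD, n = 2; limma adjusted p = 0.0174). Its call ended with any 1 sample left out (adjusted p = 0.0791 to 0.101). Timp1, a metalloproteinase inhibitor gene, measured 11.20, 9.93 and 9.70 on the Tc17 arrays and 6.21, 6.24 and 6.41 on the Tc1 arrays (limma adjusted p = 0.0429). Its call ended without Tc1 sample 1 (adjusted p = 0.189) or Tc1 sample 2 (adjusted p = 0.169).

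Tgm2, the transglutaminase 2 gene, averaged 11.80 ± 0.64 in Tc17 and 8.32 ± 0.99 in Tc1 and did not pass (limma adjusted p = 0.0941). Id3, an inhibitor of helix-loop-helix factors, measured 8.08, 8.06 and 7.78 in Tc17, against 7.06, 6.90 and 6.12 in Tc1, and did not pass either (limma adjusted p = 0.103). Itgae, Tgfbi, Timp1 and Foxp3 were already known to differ here when the lists were written, so their calls are a description.

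**Figure D4:**
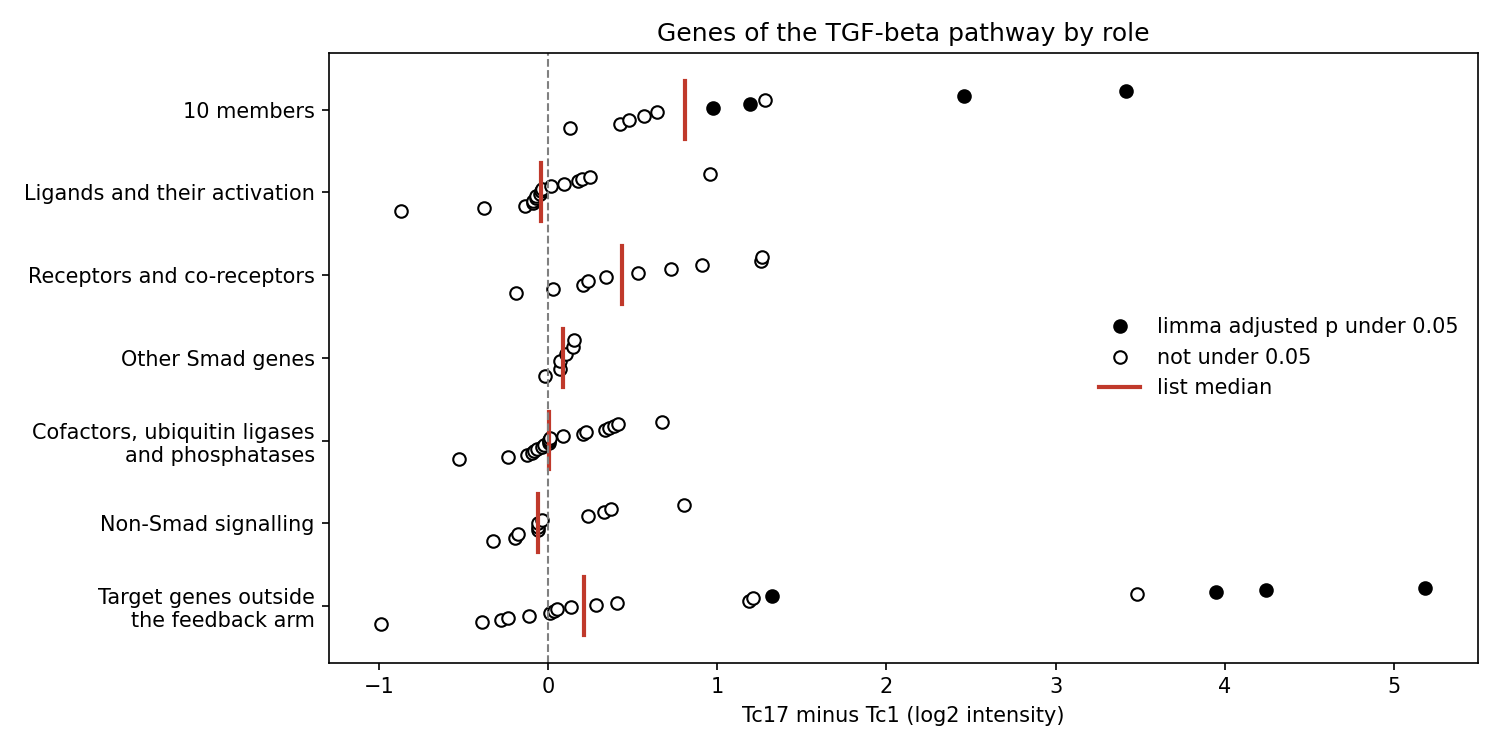
Log2 difference between Tc17 and Tc1 (horizontal axis) of the 10 genes and of the measured genes of 6 other lists, 1 point per gene, filled where the limma adjusted p was under 0.05, with a vertical line at each list's median. The medians run from −0.06 for non-Smad signalling to 0.81 for the 10 genes, and the filled points outside the 10 genes are Itgae, Foxp3, Timp1 and Tgfbi.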

How the data were processed

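Single-colour Affymetrix arrays of biotin-labelled total RNA were used, 3 per group. The deposited values are log2 intensities made by the authors (per the submitters' processing notes, which name RMA and Partek); versions, build and annotation release are not given in the sources used here. RMA corrects background, normalizes by quantiles and summarizes probes, which can compress large differences. No detection calls were used.

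The array titled as a technical replicate was averaged with biological sample 2 of its group. Tc17 minus Tc1 was fitted by lmFit and eBayes of limma 3.58.1 (R 4.3.3), a mean per group, over all 41345 probe sets without a filter, with Benjamini-Hochberg adjustment at 0.05. The fit had 2 residual and 2.63 prior degrees of freedom. Lists were described by counts and medians. The fit, without the averaging of technical arrays, was run on simulated data with known changes and independent noise per sample. The noise was drawn with the variances of the fit itself, so that run checks the code and gives no support to the calls. It does not cover deviations shared by same-numbered samples. Genes were named from the platform annotation, 1 probe set per gene with the highest mean. Genes were named by rule: all 10, the called and the 2 largest uncalled genes of each list, and Tgfbr2, Smad2, Smad4, Tgfb1 and Itgae. Tgif2, Smad6, Cdkn2b, Ccn2 and Bcl2l11 were added after their values were seen. The genes and lists were chosen with earlier results of these data known. Listed genes without a probe set of 1 symbol were not analysed here. A protein search planned at the outset was not run. Alternatives were other uses of the technical array, the replicate block, normalizations, a level filter, eBayes settings, leaving out samples and other probe set choices. Figures used matplotlib 3.10.9.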

Additional observations from a re-analysis of the deposited data

How the results depend on the processing

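Over 15 other settings the differences of all 10 genes stayed above 0, which was largely fixed beforehand. The level filter, the eBayes settings, the replicate block and the probe set choices leave these differences unchanged. Leaving out arrays cannot reverse the 9 genes whose groups did not overlap. The 4 calls held under quantile normalization, median centring, eBayes with trend or robust settings and averaging over a gene's probe sets, and with the technical arrays left out Skil replaced Tgfbr1 among 4. With 6 arrays as separate samples 7 of the 10 were called, with 15 other pathway genes higher and 3 lower and 2318 probe sets in all. With sample as a random block (consensus correlation 0.101) these counts were 7, 15, 3 and 2074. Both settings count repeat arrays beyond the 2 samples per group. With the replicate number as a block 6 of the 10 were called, 13 other pathway genes were higher and 2 lower, and 1535 probe sets passed. Same-numbered samples deviated together (r = 0.31 across probe sets), but the groups share 2 numbers and nothing in the labels pairs them, so the block was not used. Keeping probe sets above the overall median in level called 648 of 20672, and keeping named probe sets, chosen after seeing the data, 866 of 23521, with 6 of the 10 called in both and, in the second, 10 other pathway genes higher and 1 lower. Both test fewer probe sets. With 1 sample left out, 48 to 125 probe sets, 0 to 1 of the 10 and 2 to 3 other pathway genes were called, all higher. In these fits the lone sample is assumed to vary like the others. With 2 samples per group, a p that misses the threshold does not show equality.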
